A study of Rattus norvegicus with 9 samples.

Results

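The genes described here are the antioxidant enzymes that use or surround glutathione, together with the metallothioneins. They were chosen by platform gene symbol (glutathione S-transferases, glutathione peroxidases, glutamate-cysteine ligase, glutathione reductase, superoxide dismutases, catalase, peroxiredoxins, thioredoxins, heme oxygenases, quinone reductases, Mt1, Mt2A and Mt3). That choice was made with earlier results of these data known. The rule found 56 of the 10411 genes on the array that a probeset names alone, through 60 probesets. Of these, 48 genes (49 probesets) had a third-highest signal of at least 45 over the arrays and entered the tests, among 9038 such probesets of 6867 genes. The other 8 genes, Gsta3, Gsta4, Gstm3, Gstt2, Gpx2, Gpx6, Gsr and Mt1, were below that minimum and were not tested. A further 3 probesets carry several symbols, so no gene is named from them.

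Expression was measured on Affymetrix RAE230A arrays in a small artery of the hind limb, the primary branch of the saphenous artery, taken from male rats aged 16 weeks. The question was how the artery differs between 2 models of high blood pressure. WKY is the Wistar-Kyoto strain, untreated and used as the normotensive control. ACTH is WKY given adrenocorticotropic hormone, which drives adrenal steroid output, for 4 weeks from 12 weeks of age, at 0.1 mg/kg per day by the sample labels (the study's methods give a higher dose). SHR is the spontaneously hypertensive rat, untreated, an inbred strain that differs from WKY at many loci. Each group had 3 arrays, and each array held RNA pooled from 2 or 3 rats, so the spread given is between pools. SHR and ACTH were both compared with the same WKY arrays.

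Oxygen radicals are produced in the artery wall, where superoxide consumes nitric oxide, the dilator made by the endothelium. Superoxide dismutases turn superoxide into hydrogen peroxide. Catalase breaks hydrogen peroxide down directly, while glutathione peroxidases and peroxiredoxins remove it with reducing power from glutathione and thioredoxin. Glutathione S-transferases couple glutathione to reactive compounds, and metallothioneins are small cysteine-rich proteins that bind zinc and copper. Mt1 and Mt2A are known to be induced by metals and by glucocorticoids, and Mt3 is best known from the brain.

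Metallothionein genes lie side by side in the rat genome: in the RefSeq annotation of GRCr8 the only genes between Mt1 and Mt4 are Mt2A and Mt3, all on chromosome 19. The 250 bases before the RefSeq start of the 3 genes of the rule are printed below, 5′ to 3′ on the strand of the gene, because Mt3 was called in ACTH and its neighbour Mt2A was not. Capitals mark the letters TGCNCNC on either strand, with overlapping matches allowed. This string is looser than the metal response element core TGCRCNC, where R is A or G, so some marked stretches lack that core.
Mt1 (chr19:10832976-10833225, minus strand): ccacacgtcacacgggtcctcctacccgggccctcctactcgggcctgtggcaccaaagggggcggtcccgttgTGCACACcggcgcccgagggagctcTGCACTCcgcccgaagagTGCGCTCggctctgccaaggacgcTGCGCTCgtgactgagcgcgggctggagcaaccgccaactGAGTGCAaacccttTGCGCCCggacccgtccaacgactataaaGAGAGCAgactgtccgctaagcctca
Mt2A (chr19:10838709-10838958, minus strand): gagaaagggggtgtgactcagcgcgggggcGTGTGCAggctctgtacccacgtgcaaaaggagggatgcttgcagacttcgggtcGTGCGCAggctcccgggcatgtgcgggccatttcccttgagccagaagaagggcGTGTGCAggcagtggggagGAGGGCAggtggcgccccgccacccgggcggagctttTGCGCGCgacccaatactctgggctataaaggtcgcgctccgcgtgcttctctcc
Mt3 (chr19:10856081-10856330, minus strand): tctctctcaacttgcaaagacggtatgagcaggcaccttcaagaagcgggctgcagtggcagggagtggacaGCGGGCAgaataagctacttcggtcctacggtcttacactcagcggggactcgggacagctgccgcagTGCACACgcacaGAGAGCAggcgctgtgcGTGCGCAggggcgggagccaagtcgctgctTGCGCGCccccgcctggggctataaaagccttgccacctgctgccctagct
This looser string occurred 7 times before Mt1, 5 times before Mt2A and 5 times before Mt3. At least 1 match was present in 43.9% of 27457 RefSeq promoters of the same length, but as many as 5 in only 0.361% and as many as 7 in 0.0583%. All 3 promoters also held the letters TATAAA at nearly the same place, starting at -32 in Mt1 and at -31 in Mt2A and in Mt3. These letters, on either strand, were found in 13.1% of all promoters. Of the 56 genes, 48 had a promoter in the table, and 13 of those (27.1%) held the antioxidant response element core TGACNNNGC against 10.2% of all promoters. Within these 250 bases the promoters of Gstt3, Gstm1 and Nqo1 held none, and that of Gstm7 held 1. The glucocorticoid response element core ACANNNTGT was present in the Gstm7 promoter and in no other of the 48, against 5.62% of all promoters. These are matches of letters in a short window, not binding sites, and sites further from the start were not looked for.

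The arrays were alike in scaling, with a trimmed mean of 150 on each and median signals from 52.3 to 58.1. RNA quality moved with the groups: the GAPDH 3′/5′ ratio, which rises when RNA is short, averaged 5.41 ± 0.541 over the WKY arrays, 4.05 ± 0.436 over ACTH and 4.17 ± 0.860 over SHR (SD, n = 3; ACTH against WKY, exact permutation test, two-sided p = 0.1, the smallest that 3 against 3 allows). Scan days were uneven as well. WKY 2 was scanned with SHR 1 and SHR 2, the 3 ACTH arrays with SHR 3, and WKY 1 and WKY 3 each alone, so no day held both ACTH and WKY arrays. With scan day as a block, SHR against WKY therefore rests on WKY 2 with SHR 1 and SHR 2. SHR against ACTH rests on SHR 3 alone, and ACTH against WKY is reached only through SHR. For a call lost under that block, scan day and the loss of arrays cannot be told apart. All 5 smooth muscle markers were above the minimum and none was called. In the counts that follow, markers that no probeset names alone also count as not above the minimum. Macrophage markers (5 of 7 above the minimum, none called) summed to 325 to 1054 (WKY), 1164 to 1800 (ACTH) and 824 to 1336 (SHR). Fibroblast markers (6 of 6) summed to 10870 to 13112 (WKY), 8136 to 10268 (ACTH) and 11115 to 12143 (SHR), with Col1a1 and Col1a2 called lower in ACTH than in WKY. Of the endothelial markers 4 of 6 were above the minimum, and they did not move together: Vwf was called lower in SHR than in WKY (-1.28; limma, adjusted p = 0.0112), while Kdr, Pecam1 and Nos3 had uncalled differences of 0.87, 0.54 and 0.27. Their sum, led by Vwf, was 1414 to 1676 in WKY, 1213 to 1464 with ACTH and 854 to 1120 for SHR. Fat cell markers (2 of 7 above the minimum) summed to 47.1 to 184 in WKY, 191 to 372 with ACTH and 162 to 204 for SHR, with Cfd called higher in ACTH. The 1 skeletal muscle marker of 6 above the minimum, Acta1, was 420 to 574 in WKY, 668 to 743 with ACTH and 858 to 919 for SHR, where it was called higher than in WKY. Red cell markers (2 of 5, none called) summed to 199 to 309 in WKY, 333 to 459 with ACTH and 351 to 719 for SHR. The part of these cell types in the values below was not tested. In the pooled wall, fewer cells of a type and less RNA per cell cannot be told apart.

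Mt3 showed the largest differences of the 48 tested members. Its signal was 58.2, 96.1 and 114.0 in the WKY arrays, 26.0, 10.4 and 14.2 in the ACTH arrays, and 70.4, 97.9 and 90.7 in the SHR arrays. All 3 ACTH arrays were below every WKY and SHR array, and the WKY and SHR arrays overlapped. The log2 difference, ACTH minus WKY, was -2.46 (95% interval -3.20 to -1.72; limma, adjusted p = 0.00797), the only call among the members in that comparison, 1 of 49 probesets (2.04%) against 1.25% of all 9038 (0.697% lower). SHR minus ACTH was 2.45 (1.71 to 3.19; limma, adjusted p = 0.00415), and SHR minus WKY was -0.01 (-0.75 to 0.73; limma, adjusted p = 0.992). Mt3 kept both calls when any 1 array was left out.

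All 3 ACTH signals of Mt3 were under 45, so it entered the tests only through the groups where it was higher, and the size of the difference from ACTH is that of the dim signals as deposited. With signals under 45 raised to 45 the difference between ACTH and WKY was -0.94 (limma, adjusted p = 0.0676) and that between SHR and ACTH was 0.93 (limma, adjusted p = 0.0391). With the GAPDH ratio as a covariate the former was -2.56 (limma, adjusted p = 0.159). With scan day as a block, which reached it only through SHR, it was -2.74. Within the 1 scan day that held both SHR and ACTH, SHR 3 exceeded the ACTH mean by 2.53. Beside this, fibroblast collagen genes also fell in ACTH, while none of the 5 neuron markers reached the minimum on this array and the Schwann cell markers summed to 1886 to 1991 in ACTH against 1406 to 2149 in WKY; their part in the result was not tested.

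Mt2A was the other metallothionein that could be tested, and it was not called. This widely expressed form had signals of 141.6, 167.4 and 223.3 in WKY, 224.9, 200.7 and 200.1 in ACTH, and 142.9, 263.5 and 178.7 in SHR. These groups overlapped in every comparison, and the difference of ACTH from WKY was 0.26 (-0.26 to 0.77; limma, adjusted p = 0.734), an interval that leaves out a fall of the size measured for Mt3. Mt1 was between 0.678 and 9.15 on all arrays through the probeset that names it alone, below the minimum. A probeset that the platform assigns to Mt1f, Ttr and Mt1 together was bright: 187.8, 239.5 and 275.5 in WKY, 112.3, 115.5 and 116.1 in ACTH, and 106.9, 201.6 and 272.0 in SHR. Its ACTH arrays were below its WKY arrays, but the difference of -1.01 (-1.65 to -0.37) was not called (limma, adjusted p = 0.153), and which of its symbols it measured is unknown.

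**Figure D1:**
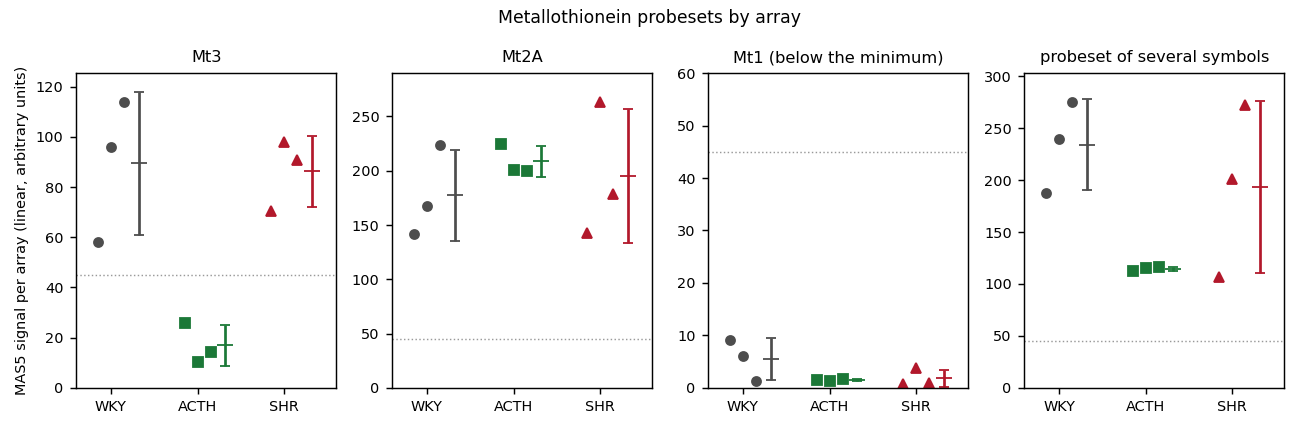
Signal of each metallothionein probeset on a linear scale, with 1 point per array, the mean as a dash with the SD (n = 3) beside the points, and the minimum of 45 as a dotted line. Mt3 was at 10.4 to 26.0 in ACTH and at 58.2 or more in WKY and SHR, Mt2A overlapped between all groups, and Mt1 did not exceed 9.15.

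Gstt3, a theta class glutathione S-transferase, had the largest difference between SHR and WKY of the 48 tested members. Its signal was 108.6, 134.4 and 112.0 in WKY, 113.4, 98.3 and 94.5 in ACTH, and 207.8, 238.1 and 285.1 in SHR. Every SHR array was above every other array, which also held for Gstm1, Txndc5, Prdx3 and Hmox2. The WKY and ACTH arrays of Gstt3 overlapped. SHR exceeded WKY by 1.04 on the log2 scale (0.68 to 1.40; limma, adjusted p = 0.00799), a 2.05-fold difference, and exceeded ACTH by 1.25 (0.89 to 1.61; limma, adjusted p = 0.00331). ACTH minus WKY was -0.21 (-0.57 to 0.15; limma, adjusted p = 0.671). Both calls held whichever array was left out. With scan day as a block the difference of SHR from WKY, which rests on WKY 2, was 0.73. That from ACTH, which rests on SHR 3, was 1.49. Gstt1, the theta class gene next to it on chromosome 20, was not called: SHR minus WKY was 0.39 (-0.19 to 0.98), with signals of 78.7 to 95.5 (WKY), 49.4 to 93.8 (ACTH) and 85.3 to 158.2 (SHR). Gstt2, the remaining theta class gene of the rule, was below the minimum.

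Gstm1, a mu class transferase, was the other member called in SHR. Its signals were 34.5, 37.0 and 37.2 in WKY, 47.5, 53.0 and 51.4 in ACTH, and 56.0, 57.1 and 59.8 in SHR. The groups did not overlap and stood in the order WKY, ACTH, SHR. SHR minus WKY was 0.67 (0.40 to 0.94; limma, adjusted p = 0.0208), ACTH minus WKY was 0.48 (0.21 to 0.76; limma, adjusted p = 0.119) and SHR minus ACTH was 0.19 (-0.09 to 0.46; limma, adjusted p = 0.482), so neither pair of neighbours in that order was called different. Its WKY signals were all under 45, so it entered the tests only through the groups where it was higher, and with signals raised to 45 the difference of SHR from WKY was 0.36 (limma, adjusted p = 0.170). The call was lost in 5 of 9 fits that left out 1 array, with adjusted p-values of 0.0706 without WKY 1, 0.0546 without WKY 3, 0.0506 without ACTH 1, 0.0748 without SHR 2 and 0.0577 without SHR 3, although the difference stayed between 0.64 and 0.69 in all 9. With Gstt3 it made 2 calls of 49 (4.08%) between SHR and WKY, both higher in SHR, against 2.04% of all probesets (0.952% higher).

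Gstm7, another mu class gene of the same run of neighbours on chromosome 2, was highest in ACTH. Its signals were 28.3, 41.1 and 39.8 in WKY, 59.7, 89.4 and 71.3 in ACTH, and 25.0, 46.1 and 35.9 in SHR. All ACTH arrays were above all others, and WKY and SHR overlapped. SHR minus ACTH was -1.07 (-1.61 to -0.52; limma, adjusted p = 0.0439), and ACTH minus WKY was 1.01 (0.47 to 1.56; limma, adjusted p = 0.0955). It passed the minimum only through the ACTH arrays, the group where it was high (1 other array, SHR 2, was above 45), and its call was lost when any of 7 of the 9 arrays was left out. The difference was -0.83 (limma, adjusted p = 0.0971) without SHR 1, -0.92 (0.134) without ACTH 2, -1.21 (0.0751) without ACTH 1, -1.08 (0.134) without ACTH 3, -1.09 (0.0990) without SHR 3, and -1.07 without WKY 2 (0.0518) or WKY 3 (0.0579). Of the other mu class genes, Gstm2 had signals of 211.0 to 256.7 (WKY), 299.6 to 305.1 (ACTH) and 131.2 to 244.0 (SHR), with a difference of SHR from ACTH of -0.71 (limma, adjusted p = 0.100). Gstm4 and Gstm5 overlapped between all groups. Mu class genes are near-identical in long stretches, and how far their probes hybridise to one another was not tested.

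**Figure D2:**
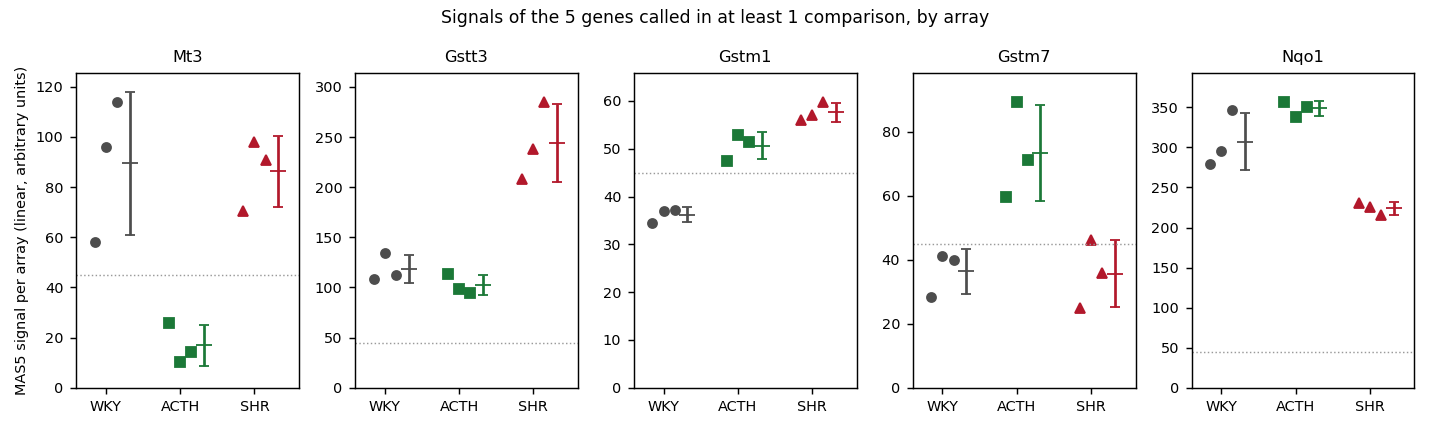
Signal per array on a linear scale for the 5 genes called in at least 1 comparison, with the mean and SD (n = 3) beside the points and the minimum of 45 as a dotted line; each panel has its own axis from 0. Mt3 was low in ACTH (10.4 to 26.0), Gstt3 high in SHR (207.8 to 285.1), Gstm1 lowest in WKY, Gstm7 highest in ACTH and Nqo1 lowest in SHR.

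Across the family, 12 of 16 glutathione S-transferases were tested. The median log2 difference of ACTH from WKY over these 12 genes was 0.27, with 10 above 0. Over all 6867 genes it was 0.02, with 3724 above 0. None of the 12 was called in that comparison. Gstm1 and Gstm7, among the 12, passed the minimum only through groups where they were higher. The family median and the count above 0 are therefore not independent of that filter. Of all kept probesets, 10.7% were higher in ACTH than in WKY without overlap. Non-overlapping and higher in ACTH were Gsta1 (648 to 757 against 375 to 596), Gstm1, Gstm2, Gstm7, Gstp1, the pi class enzyme (1132 to 1294 against 983 to 1128), and Gstz1, an enzyme of tyrosine breakdown (68.7 to 86.6 against 47.8 to 59.3). Scan day as a block reaches ACTH against WKY only through SHR and WKY 2. Under it the differences of Gstm2 and Gstp1 were -0.087 and -0.096, and that of Gsta1 was 0.046. Those of Gstm1, Gstm7 and Gstz1 were 0.37, 0.74 and 0.85. Between SHR and WKY the family median was 0.31 beside -0.00 for all genes, with 7 genes above 0 and 5 below. Gstk1, the kappa class enzyme of mitochondria and peroxisomes, was among those below, at 53.1 to 107.2 in SHR against 84.1 to 151.2 in WKY and 110.8 to 157.1 in ACTH.

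Nqo1, the quinone reductase that is a classical target of the Nrf2 pathway, was lowest in SHR. Its signals were 279.0, 295.6 and 346.9 in WKY, 356.9, 338.1 and 351.1 in ACTH, and 230.8, 225.2 and 215.5 in SHR. The SHR arrays were below all others, and WKY and ACTH overlapped. SHR minus ACTH was -0.64 (-0.93 to -0.35; limma, adjusted p = 0.0282), and SHR minus WKY was -0.45 (-0.75 to -0.16; limma, adjusted p = 0.130). Leaving out ACTH 1, ACTH 2, ACTH 3, SHR 2 or SHR 3 ended the call, with adjusted p-values of 0.123, 0.0741, 0.113, 0.0866 and 0.0834, while the difference stayed between -0.66 and -0.61. Nqo2, its relative, overlapped between the groups, at 52.2 to 85.7 (WKY), 43.5 to 68.2 (ACTH) and 37.5 to 59.3 (SHR).

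Hmox1, the inducible heme oxygenase, had signals of 19.2, 40.7 and 52.3 in WKY, 73.7, 85.9 and 70.6 in ACTH, and 53.5, 48.8 and 35.2 in SHR. All ACTH arrays were above all others. The difference of ACTH from WKY was 1.15 (0.45 to 1.86) and was not called (limma, adjusted p = 0.141). It was called in 1 of 22 alternatives, with signals raised to 45 (0.69; limma, adjusted p = 0.0282), a setting that puts 2 of the 3 WKY arrays at the same value, and over the 22 the adjusted p reached 0.692, with the GAPDH ratio as a covariate. Macrophage markers, whose summed signal is given above, were also highest in ACTH, and their part in the Hmox1 values was not tested. Hmox2, the constitutive form, was 83.3 to 95.1 (WKY), 86.3 to 97.4 (ACTH) and 104.4 to 126.5 (SHR), a difference of SHR from WKY of 0.33 (0.03 to 0.63; limma, adjusted p = 0.270).

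SHR and ACTH, the models of high blood pressure, differed from each other at more called members than either did from WKY. Between SHR and ACTH 4 of 49 probesets (8.16%) were called, against 3.41% of all probesets. Gstt3 and Mt3 were higher in SHR (2 of 49, against 1.55% of all), and Nqo1 and Gstm7 were lower (2 of 49, against 1.86% of all). Mt3 and Gstm7 had passed the minimum only through groups where they were higher. Arrays did not overlap for 21 probesets (42.9%), against 25% of all, and 14 of these (28.6%) were lower in SHR, against 13.3% of all. Those 14 were Gstk1, Gstm2, Gstm7, Gsto1, Gstp1, Gclm, Hmox1, Nqo1, Cat, Sod2, Sod3, Txndc12 and both tested probesets of Txnl1. In contrast, non-overlap between SHR and WKY was found for 11 probesets (22.4%, against 19.3%) and between ACTH and WKY for 10 (20.4%, against 20.5%), shares close to those of the whole array. Of the 10, 9 (18.4%) were higher in ACTH, against 10.7% of all. Among these 9 were Gstm1 and Gstm7, which passed the minimum only through groups where they were higher. At an unadjusted p under 0.05 there were 11 probesets between SHR and WKY (22.4%, against 16.4% of all), 7 between ACTH and WKY (14.3%, against 12.5%) and 16 between SHR and ACTH (32.7%, against 17.3%). Whether the number of members moved differs between the comparisons was not tested, and the median log2 difference over the 48 genes was small in each: 0.08 for SHR against WKY, 0.05 for ACTH against WKY and -0.07 for SHR against ACTH, beside -0.00, 0.02 and -0.01 over all genes.

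**Figure D3:**
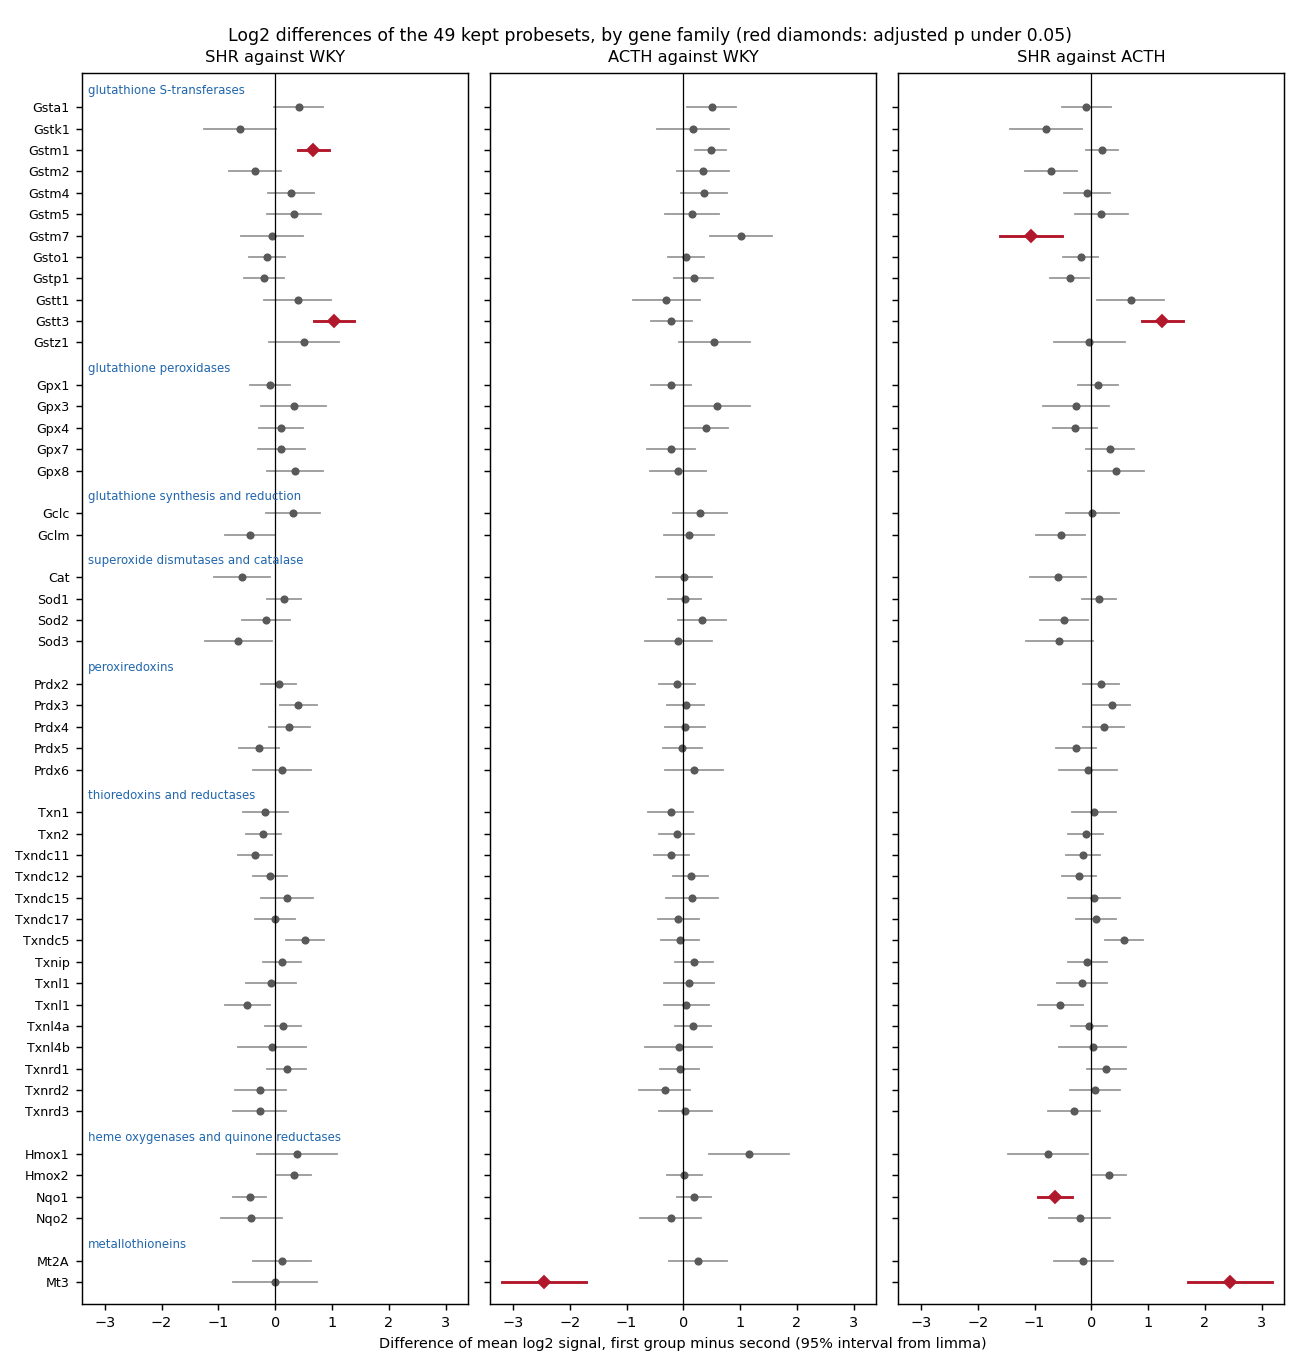
Log2 differences with 95% intervals from limma for the 49 tested probesets, grouped by family, in the 3 comparisons; red diamonds are those with an adjusted p under 0.05. Most intervals cross 0, and the calls are 2 in SHR against WKY, 1 in ACTH against WKY and 4 in SHR against ACTH.

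Superoxide dismutases and catalase were all tested, and no call was made. Catalase, which breaks down hydrogen peroxide in peroxisomes, was 319.7, 187.8 and 230.7 in WKY, 281.6, 200.4 and 251.0 in ACTH, and 136.7, 155.4 and 195.8 in SHR, so that the SHR arrays were below the ACTH arrays and overlapped WKY at 1 array. SHR minus WKY was -0.58 (-1.07 to -0.09; limma, adjusted p = 0.238). Sod3, the extracellular superoxide dismutase of the artery wall, was 777.1, 535.6 and 781.9 in WKY, 678.4, 651.7 and 614.8 in ACTH, and 274.3, 588.6 and 522.5 in SHR. SHR 1 was the lowest array, and SHR minus WKY was -0.65 (-1.24 to -0.06; limma, adjusted p = 0.266). Sod2, the mitochondrial form, was 143.9 to 170.4 (WKY), 176.3 to 207.1 (ACTH) and 101.6 to 167.3 (SHR). Sod1, the cytosolic form, was 2563 to 3016 (WKY), 2675 to 3126 (ACTH) and 2995 to 3257 (SHR), with a difference of SHR from WKY of 0.15 (-0.14 to 0.45). The median over the 4 genes was -0.37 for SHR against WKY and 0.02 for ACTH against WKY.

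Glutathione peroxidases gave no call. Gpx1, the cytosolic enzyme, was 2775 to 3729 (WKY), 2501 to 3150 (ACTH) and 2918 to 3230 (SHR). Gpx3, the secreted enzyme, was 465 to 846 (WKY), 718 to 1014 (ACTH) and 557 to 950 (SHR), and the difference of ACTH from WKY was 0.59 (0.01 to 1.18; limma, adjusted p = 0.386). Gpx4, which reduces lipid peroxides in membranes, was 1051 to 1076 in WKY and 1309 to 1526 in ACTH without overlap, a difference of 0.40 (0.01 to 0.79; limma, adjusted p = 0.382), and ranged from 900 to 1454 in SHR. Gpx8, an enzyme of the endoplasmic reticulum, was 655 to 761 in SHR against 436 to 642 in ACTH, and WKY, at 456 to 774, overlapped both. Glutathione synthesis was represented by both subunits of glutamate-cysteine ligase. Gclm, the modifier subunit, was 47.2 to 70.2 (WKY), 55.8 to 73.4 (ACTH) and 37.9 to 53.3 (SHR) (SHR minus ACTH -0.54, limma, adjusted p = 0.187). The tested probeset of Gclc, the catalytic subunit, overlapped between all groups. Another probeset of Gclc was below the minimum and not tested, at 3.17 to 24.5 (WKY), 26.3 to 31.7 (ACTH) and 5.98 to 18.0 (SHR).

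Peroxiredoxins and thioredoxins gave no call either, in 19 genes. Txndc5, a disulfide isomerase of the endoplasmic reticulum, was nearest: 578.4, 752.2 and 705.4 in WKY, 634.7, 732.2 and 578.5 in ACTH, and 929.9, 967.1 and 999.8 in SHR. Every SHR array was above every other array. SHR minus WKY was 0.52 (0.18 to 0.85; limma, adjusted p = 0.127) and SHR minus ACTH was 0.58 (0.25 to 0.91; limma, adjusted p = 0.0680). Prdx3, the mitochondrial peroxiredoxin, was likewise above all other arrays in SHR, at 297.6 to 347.4 against 203.1 to 264.6 in WKY and 245.2 to 254.1 in ACTH (SHR minus WKY 0.41, limma, adjusted p = 0.214). Prdx5 was 332.1 to 356.5 in SHR against 380.1 to 455.3 in WKY, and Txndc11 was 39.9 to 43.3 against 49.1 to 59.9. The 2 tested probesets of Txnl1, a thioredoxin-like protein tied to the proteasome, differed: SHR minus WKY was -0.49 (-0.89 to -0.10; limma, adjusted p = 0.212) for one and -0.08 (-0.52 to 0.36) for the other. Txnl4a and Txnl4b, which the symbol rule also takes in, are splicing proteins with a thioredoxin fold and overlapped between all groups.

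**Figure D4:**
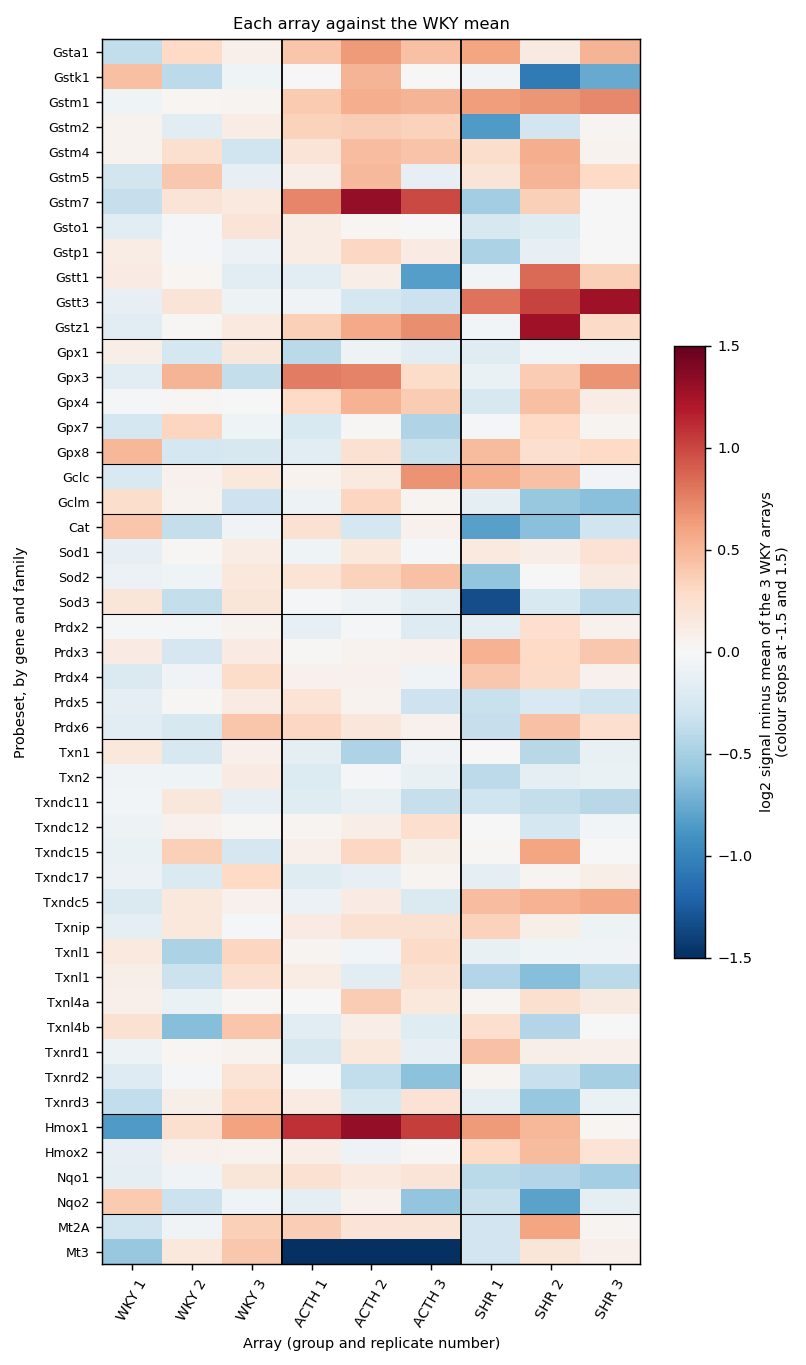
Log2 signal of each tested probeset on each array minus the mean of the 3 WKY arrays, by family; colour stops at -1.5 and 1.5, which only the Mt3 values of the 3 ACTH arrays pass. Gstt3, Txndc5 and Gstm1 are high on all 3 SHR arrays, Hmox1 and Gstm7 on all 3 ACTH arrays, and Sod3 is lowest on SHR 1.

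Over the 9 arrays, the member whose log2 signal was most like that of Gstt3 was Txndc5 (Pearson r = 0.921), followed by Hmox2 (0.819) and Prdx3 (0.688). For Mt3 the nearest were Gstt3 (0.619), Gpx7 (0.558) and Prdx2 (0.557). The 9 points fall into 3 groups, and for Gstt3 and Txndc5 the SHR arrays lie apart from the rest, so these values describe group levels as much as likeness between arrays.

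Neighbouring pathways were read in the same fit. Of the other genes of glutathione synthesis and turnover, 15 of 21 were tested and Dpep1, a membrane dipeptidase that completes glutathione breakdown outside the cell, was lower in SHR. Its signal was 118 to 166 (WKY), 184 to 251 (ACTH) and 58.8 to 85.7 (SHR), a difference of SHR from WKY of -0.92 (limma, adjusted p = 0.0422) and from ACTH of -1.56 (limma, adjusted p = 0.00250). Its second probeset fell by 1.20 between ACTH and SHR (limma, adjusted p = 0.00430). Glo1, which uses glutathione to clear methylglyoxal, was 340 to 377 in SHR, 548 to 602 in ACTH and 515 to 537 in WKY (SHR minus ACTH -0.67, limma, adjusted p = 0.0160).

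Among 15 tested genes of 23 in the list of Nrf2 pathway members and further targets, Srxn1 was higher in SHR than in WKY. This enzyme, sulfiredoxin, restores overoxidised peroxiredoxins, and its signals were 61.2, 81.8 and 70.1 in WKY, 105.1, 93.2 and 90.3 in ACTH, and 146.3, 145.2 and 145.0 in SHR. The difference of SHR from WKY was 1.05 (limma, adjusted p = 0.00425). Park7, a redox-sensitive chaperone, exceeded ACTH in SHR by 0.66 (limma, adjusted p = 0.0296). Of metal handling genes 13 of 16 were tested, and the iron exporter Slc40a1 was lower in SHR than in ACTH (SHR minus ACTH -0.78, limma, adjusted p = 0.0389). No gene was called in NADPH supply (8 tested of 9), membrane glutathione transferases (4 of 6), superoxide sources and oxidases (6 of 16) or selenoproteins and methionine sulfoxide reductases (10 of 12). Of the 16 superoxide sources and oxidases only 12 had a probeset that names them alone. Cybb, Ncf1, Nox1, Nox4, Duox2 and Rac2 were below the minimum, so nothing is known of them here.

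Genes known to be induced by glucocorticoids were tested as a setting for the metallothioneins, 12 of 16 in all. In ACTH against WKY, Angptl4 was higher by 1.94 (limma, adjusted p = 0.00799) and Nfil3 by 1.80 (limma, adjusted p = 0.0262), and Per1 was lower, at -2.92 (limma, adjusted p = 0.0328). The remaining 9, Mt2A among them, were not called in that comparison, and the median over the 12 was -0.28 beside 0.02 over all genes. Between SHR and ACTH, Tsc22d3 was higher in SHR (0.80; limma, adjusted p = 0.0173), at 708 to 846 against 417 to 458 in ACTH and 593 to 753 in WKY. Dusp1 and Angptl4 were lower in SHR than in ACTH, at -1.43 (limma, adjusted p = 0.00430) and -1.40 (limma, adjusted p = 0.0201).

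**Figure D5:**
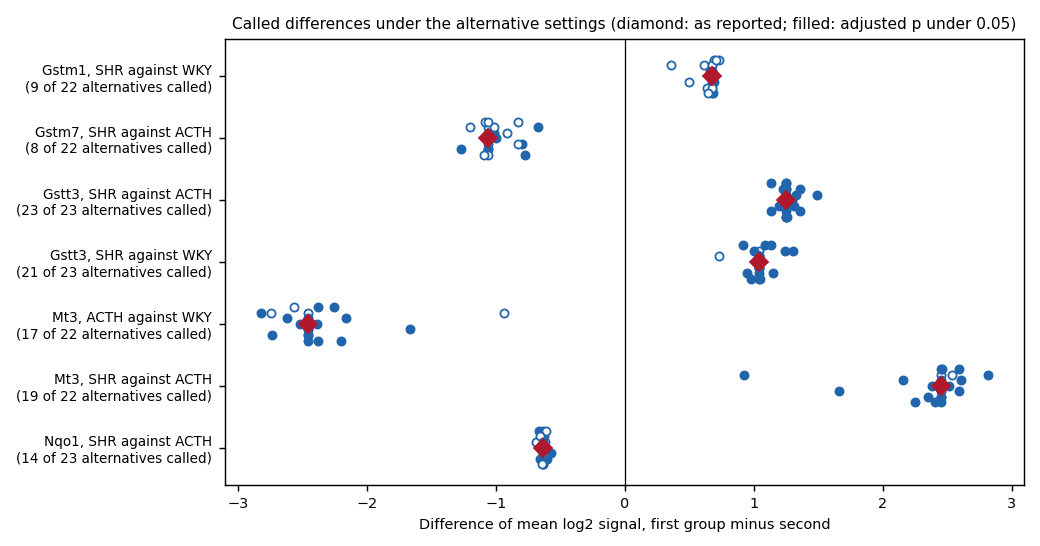
The 7 called differences as reported (red diamonds) and under each alternative setting (blue circles, filled where the adjusted p is under 0.05), in log2 units. Gstt3 was called in 21 of 23 alternatives against WKY and in 23 of 23 against ACTH, Mt3 in 17 of 22 and 19 of 22, Nqo1 in 14 of 23, Gstm1 in 9 of 22 and Gstm7 in 8 of 22; no alternative turned a direction.

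Testing all non-control probesets ended each of these calls but that of Gstt3 between SHR and ACTH, and so did scan day as a block. The methods' test without moderation, after adjustment, ended both calls of Mt3 and that of Gstm7.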

How the data were processed

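Signals came from the 9 arrays of the series, 3 each of WKY, ACTH and SHR, grouped by sample title. The authors amplified RNA in a 2-cycle protocol, hybridised it to RAE230A arrays and made the deposited intensity values with MAS5 (Affymetrix; version not given in the sources used here), scaled to a target of 150, on a linear scale and without detection calls. The scanner settings files served only for the order of scan days. The table held 0 columns of other samples. Intensities depend on the probe, so levels were compared between groups for the same probeset only, and the number of arrays limits the precision.

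Of 15923 probesets 57 were controls. Genes were named from the platform annotation, where 12783 probesets have 1 symbol, 312 several and 2771 none; 12754 of the single symbols had a gene identifier in RefSeq (GRCr8) and 0 changed. Probesets with a third-highest signal of at least 45 were kept. The methods' detection filter could not be repeated without the calls. Log2 signals were fitted with limma 3.58.1 in R 4.3.3 (lmFit, eBayes, no trend, all 9 arrays, 3 contrasts). Two-sided p-values were adjusted (Benjamini-Hochberg) across all 9038 probesets that passed, and 0.05 was the threshold for a call. The fit had 6 residual and 4.51 prior degrees of freedom and was tested on simulated data. The sample labels tie the pools to nothing beyond the group, but scan days were shared unevenly between groups. The p-values therefore measure the spread between pools as scanned. No scan day held both ACTH and WKY arrays, so that comparison cannot be separated from scan day directly. With scan day as a block it is reached only through SHR, and rests on WKY 2 and SHR 3 as single arrays. The brightest kept probeset stood for a gene in medians.

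The members, the pathway and marker lists and the tests were chosen with earlier results of these data known. Described are all called members, all probesets of Mt3, Gstt3 and the metallothioneins, and then those of lowest unadjusted p up to 28 genes, with other members given by their range. Alternatives covered the filter, scaling, log transform, variance model, RNA quality, scan day, replicate number, samples in the fit, the methods' test and each array left out. Promoters are RefSeq sequences, cut to the 250 bases before the start.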

Additional observations from a re-analysis of the deposited data

How the results depend on the processing

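Between SHR and WKY, the 2 members called became 0 with all non-control probesets or with scan day as a block, 1 with a mean signal of at least 100, 16 added to the signal, a variance trend, the GAPDH ratio as a covariate, the compared groups alone, signals under 45 raised to 45 or WKY 2 and SHR 1 both left out (the last pair of settings was chosen after seeing the data), and 4 by the methods' test at its unadjusted thresholds (F under 0.02, contrast under 0.015). Leaving out 1 array gave 1 to 2. Over all probesets the 184 calls became 72 (all non-control), 36 (GAPDH ratio), 25 (scan day), 97 (compared groups alone), 90 (the methods' test, adjusted) and 496 (its thresholds), and 100 to 225 with 1 array left out. The members' median of 0.08 ranged from -0.034 (without SHR 2; without WKY 1 it was -0.029) to 0.14 with 1 array left out.

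Between ACTH and WKY, the 1 member called became 0 with the GAPDH ratio, scan day, all non-control probesets, a mean of at least 100 or the methods' test after adjustment. It became 2 with signals raised to 45, where Hmox1 and Gstm7 were called and Mt3 was not, and 3 at the methods' thresholds. The 113 calls over all probesets became 0 (all non-control, GAPDH ratio, scan day), 205 (array weights), 5 (the methods' test, adjusted) and 376 (its thresholds), and 34 to 136 with 1 array left out. Between SHR and ACTH, the 4 members called became 1 with all non-control probesets or scan day, 9 with array weights and 2 with the methods' test after adjustment, and 2 to 4 with 1 array left out. The 308 calls became 52 (all non-control), 895 (array weights), 34 (scan day), 120 and 598 (the methods' test, adjusted and at its thresholds), and 108 to 322 with 1 array left out. The causes were not tested.

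Replicate numbers did not pair the samples: the correlations of same-numbered arrays' deviations were between -0.07 and 0.13. With the replicate number as a block, 2 members were called between ACTH and WKY, Gstm7 joining Mt3 (limma, adjusted p = 0.0190), and Nqo1 was lost between SHR and ACTH (limma, adjusted p = 0.0577). The block moved no count over all probesets by over 1.5 times.

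Reversed means a change of sign, which for a difference not called also had to move it by at least its standard error. Smaller sign changes are left out, such as Gstm7 for SHR against WKY with the GAPDH ratio (0.16). No called difference reversed. Of those not called, scan day as a block reversed Gpx3 (-0.36 for SHR against WKY, -0.44 for ACTH against WKY, 0.081 for SHR against ACTH), Txnl1 (0.39 for SHR against WKY) and, for ACTH against WKY, Gstm2 (-0.087), Gstp1 (-0.096), Gpx8 (0.23) and Sod2 (-0.028). The GAPDH ratio reversed Gstp1 for SHR against WKY (0.027) and, for ACTH against WKY, Gstt3 (0.085), Txndc5 (0.11) and both probesets of Txnl1 (-0.20 and -0.16). Array weights reversed Gstz1 for SHR against ACTH (0.26). With 1 array left out, SHR against WKY ranged from -0.033 (without WKY 1) to 0.69 for Hmox1, from -0.12 (without SHR 2) to 0.32 for Mt2A and from -0.30 to 0.061 (without SHR 1) for Sod2, and ACTH against WKY from -0.25 to 0.16 (without WKY 1) for Gpx8 and down to -0.14 (without WKY 2, with or without SHR 1) for Txnl1. Gstm7 was 0.28 for SHR against WKY without WKY 2 and SHR 1. Mt3, Gstm1 and Gstm7 have a mean signal under 100 and could not be tested at that minimum, and their folds rest on dim signals.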
